A study of Rattus norvegicus with 50 samples.

Results

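The first response of the liver to erythropoietin (EPO) after a brain injury was examined in 15 of the 50 rat livers of the series. They were 5 livers taken 24 h after injury from EPO-treated rats and the 10 livers of that time from injured rats without EPO, chosen by the titles of the arrays. All animals were male Sprague Dawley rats of about 3 months. All 15 had a controlled cortical impact (CCI), a mechanical contusion of the exposed brain, and received EPO (Procrit, 2500 IU/kg), anakinra (Kineret, 100 mg/kg) or saline vehicle, 5 rats each. Anakinra is an antagonist of the interleukin-1 receptor, so the control pool held 5 vehicle rats and 5 rats under another drug. The 5 intact sham rats had no injury and carry no time label, and their values are shown for orientation. Liver punches came from the median lobe, and each animal gave 1 Affymetrix Rat Gene 1.0 ST array. The dosing schedule and the hour at which livers were collected are not stated in the labels.

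EPO is the growth factor of red cell precursors. It binds the EPO receptor, which activates the kinase JAK2 and the transcription factor STAT5, and STAT5 induces feedback genes such as Cish and Socs2. Red cell formation needs iron, and the liver controls its supply through hepcidin, the peptide encoded by Hamp, which binds the iron exporter ferroportin (Slc40a1) and causes its degradation. Hepatocytes make hepcidin under the control of BMP-SMAD signalling, which iron stimulates, and of STAT3, which interleukin-6 stimulates, and erythroblasts driven by EPO secrete erythroferrone, a factor that lowers hepcidin. In rodents the liver and spleen can also host red cell formation.

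All values are log2 RMA values, so a difference of 1 is a doubling. Medians of the 15 arrays ran from 6.66 to 6.89, and their standard deviations from 1.99 to 2.15. Vehicle array 3 had the lowest of these standard deviations, and the next array stood at 2.06. The liver label matched its markers: the mean over 27 hepatocyte markers was 12.11 to 12.30 in the EPO arrays and 12.05 to 12.24 in the controls, and 0 of these markers reached an unadjusted p under 0.05. The mean over 23 markers of neighbouring tissues such as pancreas and muscle was 6.17 to 6.25 under EPO and reached 6.59 in the highest control array. Differences are EPO minus the average of the vehicle and anakinra means, tested with limma over 14506 genes, and a gene passed at a Benjamini-Hochberg adjusted p under 0.05.

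Few genes passed at 24 h. Fgf23, Csf2rb, Tacr1 and Mmp8 rose and Hamp fell, so that 5 genes passed, 0.0345% of those tested, with 4 higher (0.0276%) and 1 lower (0.00689%). An unadjusted p under 0.05 was reached by 729 genes (5.03%), 314 of them higher (2.16%) and 415 lower (2.86%). These shares of higher and lower genes are the background for the counts of the gene lists below. Over all genes tested the median difference was -0.02, and 44.4% of genes lay above 0. In 14 genes (0.0965%) all 5 EPO arrays lay above all 10 controls and in 4 genes (0.0276%) all lay below. These 18 genes include the 5 that passed.

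**Figure D1:**
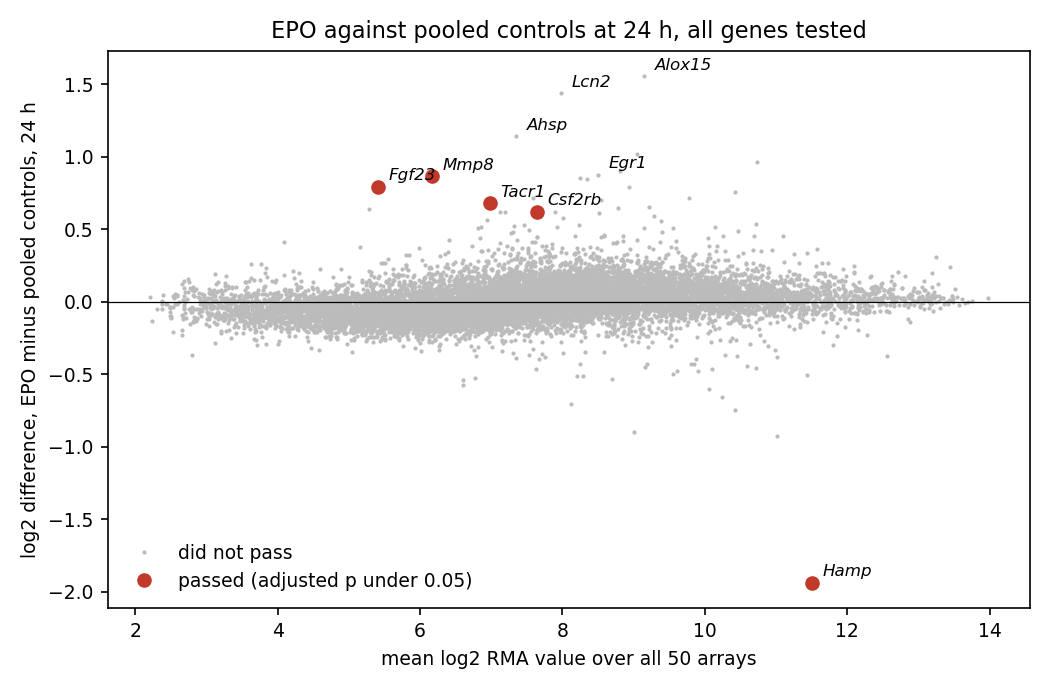
The log2 difference between EPO and pooled control livers at 24 h (vertical axis) is plotted against the mean log2 RMA value over all 50 arrays (horizontal axis), 1 point per gene for 14506 genes. The 5 red points passed at an adjusted p under 0.05; Hamp lies far below all others at -1.94, and several uncalled genes such as Alox15 (1.55) and Lcn2 (1.44) lie above the called ones.

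Hepcidin had the lowest difference of all genes tested. Hamp measured 11.77, 10.56, 9.24, 11.89 and 11.58 in the 5 EPO livers, against 13.02, 12.63, 13.09, 12.45 and 12.87 under vehicle and 13.08, 13.04, 12.98, 13.12 and 13.17 under anakinra. All EPO livers lay below all controls, EPO arrays 2 and 3 lowest, and the control and sham livers (12.70 to 13.07) overlapped. EPO livers also differed more among themselves, with a standard deviation of 1.12 against 0.23 in the 10 controls. The mean fell from 12.94 to 11.01, a difference of -1.94 (SE 0.38, 95% interval -2.70 to -1.18, adjusted p = 0.0177), or 3.83-fold. The call depended on 2 animals: without EPO array 3 the difference was -1.50 with an adjusted p of 0.41, and without EPO array 2 it was -1.82 with 0.151. In bulk tissue, fewer cells of a type and less RNA per cell cannot be told apart.

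The bases before the start site of Hamp are shown because hepcidin carried the largest change and its promoter is a known meeting point of the signals named above. The RefSeq window on GRCr8, chr1:95300272-95300521 on the minus strand, is written 5′ to 3′ with matches to 3 motifs in capitals.
Hamp: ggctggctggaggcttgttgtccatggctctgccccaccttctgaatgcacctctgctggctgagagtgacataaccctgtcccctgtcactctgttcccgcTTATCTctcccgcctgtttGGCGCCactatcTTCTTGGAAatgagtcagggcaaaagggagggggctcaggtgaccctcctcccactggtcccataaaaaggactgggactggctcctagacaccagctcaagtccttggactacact
The capitals are, in order, TTATCT, the GATA motif AGATAA read from the other strand and first base at -148, GGCGCC, the core of the BMP-responsive element, at -129, and TTCTTGGAA, a STAT motif of the form TTCNNNGAA, at -117. Counted on both strands, 11.6% of 33469 RefSeq rat promoter windows held the GATA motif, 11% GGCGCC and 8.87% the STAT motif. Among the 12518 windows of genes tested here the shares were 9.27%, 16.9% and 7.64%. Windows for 3 of the 5 called genes were in the table. That of Mmp8 held a STAT match at -149 and a GATA match at -17, and that of Tacr1 held none of the 3 motifs. A match describes letters in the window and no binding was measured.

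Hamp was alone among the iron genes in passing. Of 38 measured genes of hepcidin and iron handling, 0 rose and 1 fell, and below an unadjusted p of 0.05 stood 2 higher and 3 lower. The median of the list was 0.02, beside -0.02 over all genes. Ferroportin (Slc40a1) differed by 0.10 (95% interval -0.10 to 0.30), and the transferrin receptor Tfrc, which takes up iron into cells, by 0.18 (-0.20 to 0.56). Of 44 BMP-SMAD genes none passed, 1 stood higher and 3 lower below an unadjusted p of 0.05, and the median was -0.02. Bmp6, the ligand by which liver endothelium signals iron load, differed by -0.16 (95% interval -0.38 to 0.06). Id1, a direct target of the pathway, measured 6.56 to 6.81 in the EPO livers and 6.43 to 6.99 in the controls, groups that overlapped throughout (difference -0.08, adjusted p = 0.832). The inhibitory Smad7 (-0.20, adjusted p = 0.83) and the target Id2 (-0.38, adjusted p = 0.83) did not pass.

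**Figure D2:**
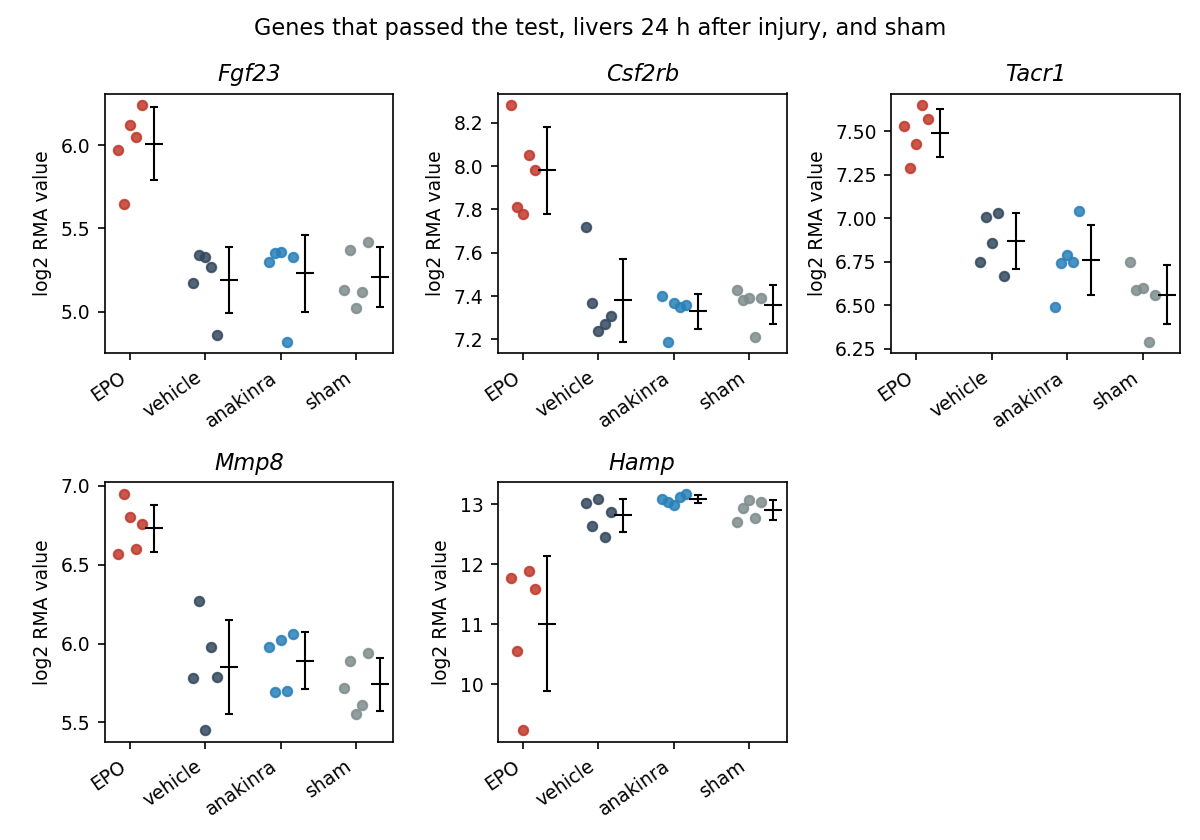
Log2 RMA values of the 5 genes that passed are shown for each array (points) of the EPO, vehicle, anakinra and sham groups, with the mean and SD of the 5 arrays beside them. In every panel the 5 EPO points lie apart from all 10 control points, and Hamp spreads from 9.24 to 11.89 under EPO.

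Csf2rb encodes the common beta chain shared by the receptors of interleukin-3, interleukin-5 and GM-CSF. It measured 8.28, 7.81, 7.78, 8.05 and 7.98 in the EPO livers, and 7.19, 7.36 and 7.72 at the lowest, median and highest of the 10 controls. The groups did not overlap, although vehicle array 1, at 7.72, came close to the lowest EPO array. Csf2rb rose by 0.62 (SE 0.10, adjusted p = 0.00159), a 1.54-fold difference, and passed without each of the 15 arrays in turn.

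It was the only one of the 34 measured genes of the EPO receptor, STAT5 targets and cytokine feedback to pass. Below an unadjusted p of 0.05 stood 3 higher and 1 lower, the median was 0.07 and 70.6% of the list lay above 0, beside 44.4% of all genes. The feedback inhibitor Socs2 measured 11.12, 11.01, 11.46, 11.35 and 12.10 under EPO and from 8.99 to 11.55 in the controls, with sham livers at 11.03 to 11.86. The EPO livers sat at the high end of a wide control range that they overlapped, and the difference of 0.97 did not pass (SE 0.39, adjusted p = 0.83). Cish, another STAT5-induced inhibitor, measured 9.48 to 9.81 in EPO arrays 2 to 5 and 8.15 in array 1, against 7.33 to 9.60 in the controls. Its difference of 0.70 had an interval of -0.39 to 1.79.

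The receptor and its first messengers differed little. Epor measured 7.17 to 7.34 under EPO and 7.18 to 7.72 in the controls (difference -0.14, adjusted p = 0.83). Jak2 differed by 0.16 (95% interval -0.02 to 0.34), Stat5a by 0.08 (-0.11 to 0.26) and Stat5b by 0.17 (-0.001 to 0.35), and none of them passed. The kinase gene Pim1, a STAT5 target, differed by 0.20 (adjusted p = 0.83), with EPO arrays 3 and 4 (9.13 and 9.02) above all controls and the other EPO arrays (8.13 to 8.23) within them.

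Fgf23 had the smallest p of all genes. It encodes fibroblast growth factor 23, a hormone made chiefly in bone that lowers phosphate reabsorption and active vitamin D. Its probe read 5.97, 5.65, 6.12, 6.05 and 6.24 in the EPO livers, and 4.82, 5.31 and 5.36 at the lowest, median and highest of the controls. All EPO arrays lay above all controls, and the sham livers, 5.02 to 5.42, sat with the controls. Fgf23 rose by 0.79 (SE 0.12, adjusted p = 0.000945), 1.73-fold, and passed without each array in turn. The table held no detection call, and Fgf23 lay among the dimmest 25% of genes by mean value. None of the other measured genes of the list on FGF23, phosphate and vitamin D passed: of its 30 genes 1 was higher and 0 lower below an unadjusted p of 0.05, and the median was -0.03.

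Tacr1 encodes the neurokinin 1 receptor, the receptor of the neuropeptide substance P. Its values were 7.53, 7.29, 7.43, 7.65 and 7.57 under EPO, against 6.49, 6.77 and 7.04 at the lowest, median and highest of the controls. The lowest EPO array lay above the highest control, and the EPO group had an SD of 0.14. Tacr1 rose by 0.68 (SE 0.12, adjusted p = 0.00195), 1.60-fold, and passed without each array in turn. Sham livers measured 6.29 to 6.75.

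Mmp8 encodes neutrophil collagenase, a protease of the specific granules. It measured 6.57, 6.95, 6.80, 6.60 and 6.76 in the EPO livers, and 5.45, 5.88 and 6.27 at the lowest, median and highest of the controls. No control reached the lowest EPO liver. Mmp8 rose by 0.86 (SE 0.17, adjusted p = 0.0177), 1.82-fold. This call was not stable to single arrays: the adjusted p was 0.151, 0.128 and 0.085 without EPO arrays 2, 3 and 5 and 0.0548 without vehicle array 3, with differences of 0.81 to 0.86 in these fits.

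Other neutrophil genes did not pass. Of 28 measured neutrophil markers 1 passed. Below an unadjusted p of 0.05 stood 4 higher (14.3%, beside 2.16% of all genes) and 0 lower (2.86% of all genes). These were Mmp8, Ngp, S100a9 and Lcn2, the last 2 named after their values were seen. Ngp, a late granule protein of maturing neutrophils, read 5.78, 5.76, 5.48, 5.55 and 5.59 under EPO and 4.64, 4.98 and 5.32 at the lowest, median and highest of the controls. Its groups did not overlap either, but the difference of 0.64 (SE 0.17) had an adjusted p of 0.618. S100a9, a calcium-binding protein abundant in neutrophils, differed by 0.43, with 6.41 to 6.80 under EPO and 6.02 to 6.42 in the controls (adjusted p = 0.83). Its partner S100a8 differed by 0.20. Both S100a8 and Ngp lay among the dimmest 25% of genes by mean value. Mpo, myeloperoxidase of the primary granules, stood at 5.84 to 6.04 under EPO and 5.82 to 6.59 in the controls, a difference of -0.18. The mean over the neutrophil list, 6.25 to 6.41 under EPO and 6.08 to 6.44 in the controls, overlapped, and its median difference was 0.01. The list differed with the control group. Against vehicle alone its median was -0.05 and 35.7% lay above 0, with 3 higher and 2 lower below an unadjusted p of 0.05. Against anakinra alone its median was 0.06 and 78.6% lay above 0, with 6 higher and 0 lower. Of all 14506 genes, 44% lay above 0 against vehicle, with 536 higher and 1036 lower below that p. Against anakinra 46.8% did, with 129 higher and 116 lower. Whether more neutrophils in the punches had a part in the Mmp8 difference was not tested.

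Lcn2, lipocalin 2, an iron-scavenging protein of neutrophils and of stressed hepatocytes, was highest in a single animal. It read 7.92, 8.96, 8.83, 8.21 and 11.78 under EPO and 7.29, 7.59 and 8.33 at the lowest, median and highest of the controls. EPO array 5 stood far above all other arrays, and arrays 1 and 4 lay within the control range. The difference of 1.44 (SE 0.48) did not pass (adjusted p = 0.83).

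The next smallest p-values belonged to Egr1 and Dmbt1, in which the anakinra mean lay between the vehicle and EPO means. Egr1, an immediate-early transcription factor, measured 9.99, 8.76, 9.52, 8.87 and 8.91 under EPO, 7.78, 8.27, 8.32, 7.98 and 8.06 under vehicle and 8.77, 8.63, 8.48, 9.01 and 8.06 under anakinra. All EPO livers exceeded all vehicle livers, but EPO arrays 2, 4 and 5 did not exceed anakinra array 4. The pooled difference was 0.88 (SE 0.19, adjusted p = 0.0809), and Egr1 passed against vehicle alone (1.13, adjusted p = 0.0285). Dmbt1, a secreted scavenger receptor protein of epithelia, read 7.48 to 7.65 under EPO, 6.41 to 7.31 under vehicle and 6.98 to 7.40 under anakinra. All its EPO arrays lay above all controls. Its pooled difference of 0.62 had the same adjusted p, 0.0809, and it too passed against vehicle alone (0.78, adjusted p = 0.0285).

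The control groups were also compared with each other. Between anakinra and vehicle livers at 24 h, 0 genes passed (0%), while 616 reached an unadjusted p under 0.05 (4.25%). Anakinra exceeded vehicle by 0.51 in Egr1 and 0.33 in Dmbt1, and neither difference passed. For the 5 genes that passed, anakinra differed from vehicle by 0.04 in Fgf23, -0.05 in Csf2rb, -0.11 in Tacr1, 0.27 in Hamp and 0.04 in Mmp8. Against vehicle alone 4 genes passed (Fgf23, Csf2rb, Egr1 and Dmbt1) and against anakinra alone 3 (Fgf23, Csf2rb and Tacr1), so Hamp and Mmp8 passed against neither control group by itself. The Hamp difference was -1.80 against vehicle (adjusted p = 0.189) and -2.07 against anakinra (0.0708).

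**Figure D3:**
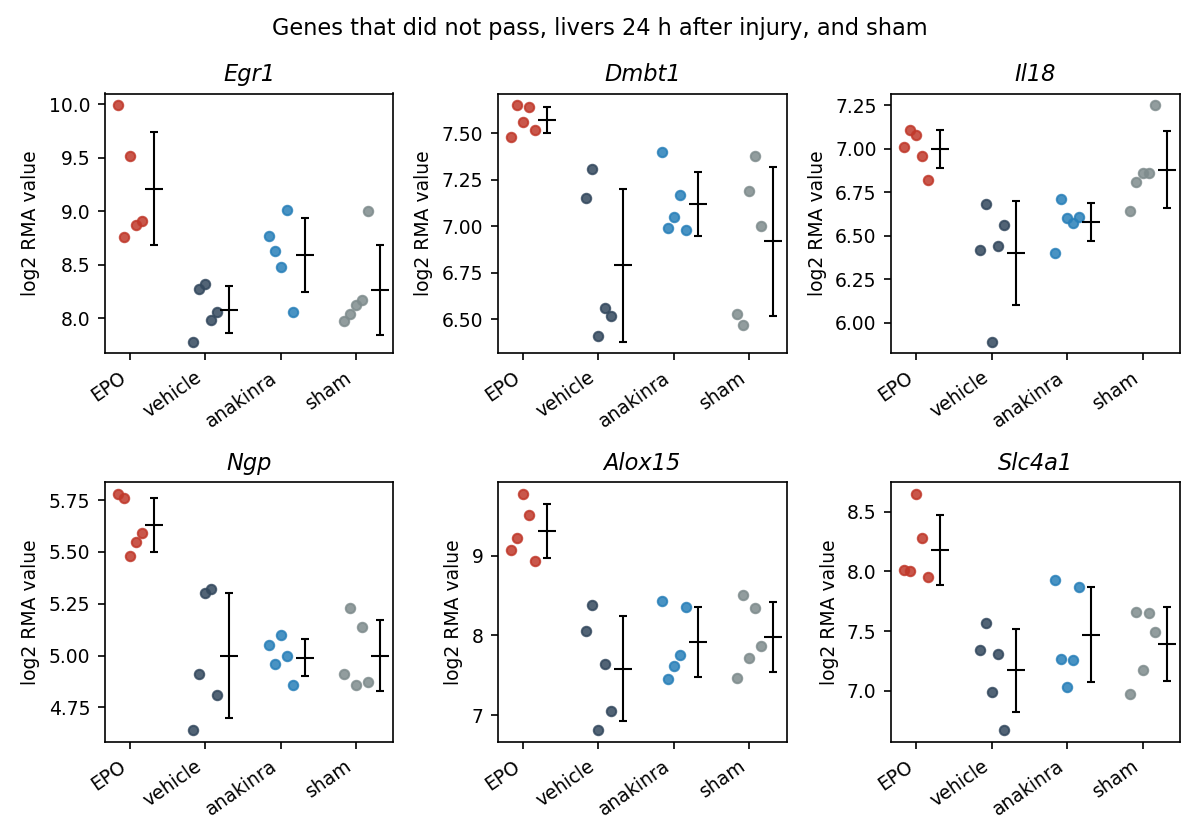
Log2 RMA values of 6 genes that did not pass are shown for each array (points) of the EPO, vehicle, anakinra and sham groups, with the mean and SD of the 5 arrays beside them. In Egr1 the anakinra mean lies between those of vehicle and EPO while its points overlap both groups. In Dmbt1, Il18, Ngp, Alox15 and Slc4a1 all EPO points lie above all vehicle and anakinra points. Sham points reach the EPO range in Egr1 and Il18.

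Immediate-early genes gave no call. Of 42 measured, none passed, and the median was -0.01. Below an unadjusted p of 0.05 stood 5 higher (11.9%) and 2 lower (4.76%), beside 2.16% and 2.86% of all genes. Dusp1, a phosphatase that switches off MAP kinases, differed by 0.76 (SE 0.26, adjusted p = 0.83), with EPO livers at 10.24 to 11.97 and controls at 9.28 to 11.17. Jun, named after its values were seen, differed by 0.79 (SE 0.31, adjusted p = 0.83). In both genes the groups overlapped.

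Further genes with small p-values did not pass, and in Il18, Adam23, Acer2 and Zfp36l1 all EPO arrays lay above all controls. Il18, an interleukin-1 family cytokine of macrophages, read 6.82 to 7.11 under EPO and 5.89 to 6.71 in the controls (difference 0.51, adjusted p = 0.157). Its sham livers, 6.64 to 7.25, overlapped the EPO range. Adam23, a cell surface protein of the disintegrin family, differed by 0.33 (adjusted p = 0.103), and Acer2, an alkaline ceramidase, by 0.46 (adjusted p = 0.157). Zfp36l1, which promotes decay of AU-rich messenger RNAs, read 11.69 to 11.98 against 11.24 to 11.63 (difference 0.36, adjusted p = 0.83). The histone gene Hist1h4b differed by 0.45 (adjusted p = 0.157), its highest control, at 10.53, lying above the lowest EPO array, at 10.52. Histone genes are near-identical copies, so the array may not tell them apart. On the lower side Trpm3, a cation channel among the dimmest 25% of genes, differed by -0.27 (adjusted p = 0.378). Aacs, an enzyme that activates acetoacetate, differed by -0.34 (adjusted p = 0.618), and in both genes the groups overlapped.

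Red cell genes gave no call at 24 h. Of 35 measured erythroid and blood transcripts none passed, 3 stood higher and 1 lower below an unadjusted p of 0.05, the median was -0.01 and 45.7% lay above 0. The highest were Alox15, Ahsp and Slc4a1. Alox15, the 15-lipoxygenase of reticulocytes and also of eosinophils and macrophages, read 9.08, 9.23, 9.78, 9.52 and 8.93 under EPO and 6.81, 7.69 and 8.43 at the lowest, median and highest of the controls. Every EPO liver exceeded every control, and the difference of 1.55 was the highest of all genes tested. Its SE of 0.47 comes from a model over all 50 arrays, and the adjusted p was 0.83. In a fit of the 15 arrays alone, Alox15 passed (adjusted p = 0.00579), and so did Ngp (0.0131) and S100a9 (0.0481).

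Slc4a1, the anion exchanger band 3 of the red cell membrane, read 8.01, 8.0, 8.65, 8.28 and 7.95 under EPO and 6.67, 7.29 and 7.93 at the lowest, median and highest of the controls. The groups were separated by a narrow margin (difference 0.85, SE 0.34, adjusted p = 0.83). Ahsp, the chaperone of alpha globin, read 6.83 to 7.72 under EPO, 3.95 to 6.44 under vehicle and 6.0 to 7.02 under anakinra. Vehicle array 3, at 3.95, lay far below the rest, and the difference of 1.14 did not pass (adjusted p = 0.83). Against these, other defining red cell genes differed less and did not pass. Rhd, a Rh blood group gene, differed by 0.38 (adjusted p = 0.832). Hemgn, a nuclear protein of erythroid cells, differed by -0.04 (95% interval -0.62 to 0.54). Rhag, a Rh complex protein among the dimmest 25% of genes by mean value, differed by -0.02 (-0.33 to 0.28). Alas2, the first enzyme of heme synthesis in erythroid cells, differed by -0.16 (-0.97 to 0.66). Hbb, beta globin, differed by -0.37 (adjusted p = 0.83), with 11.52 to 12.38 under EPO and 11.63 to 12.91 in the controls.

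**Figure D4:**
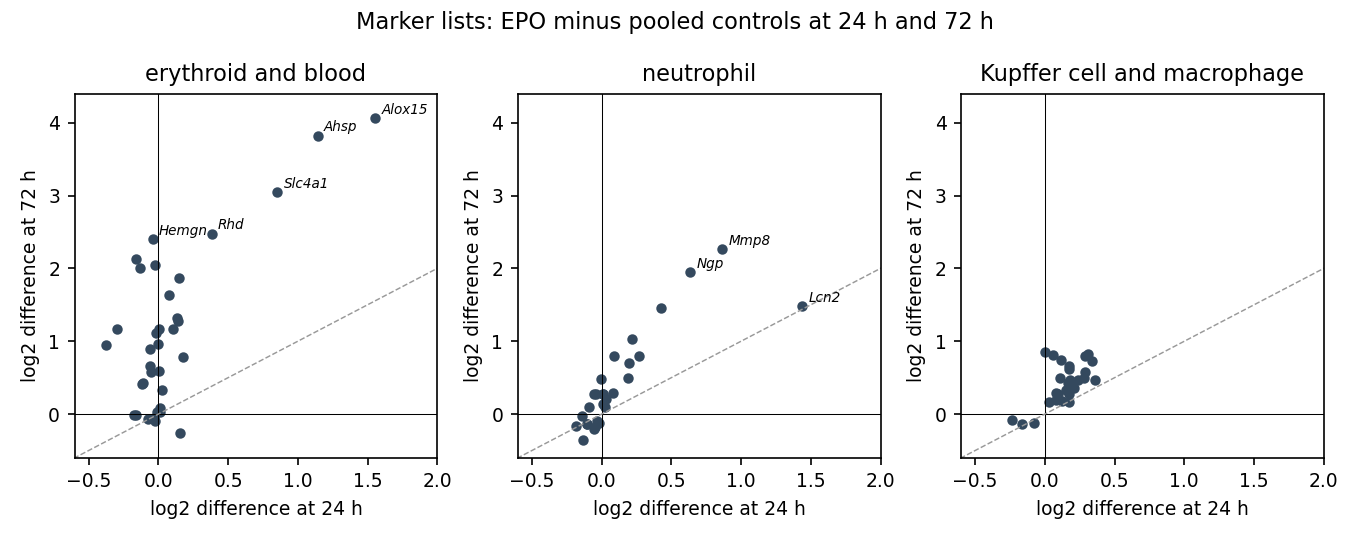
Each point is 1 measured gene of the erythroid and blood (35), neutrophil (28) or Kupffer cell and macrophage (30) list, with its log2 difference between EPO and pooled controls at 24 h (horizontal axis) and at 72 h (vertical axis); the dashed line marks equal differences. Most erythroid points lie near 0 at 24 h and well above 0 at 72 h, with Alox15, Ahsp and Slc4a1 to the right.

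The later times show what the early response became. At 72 h, 424 genes passed (2.92%), 381 higher (2.63%) and 43 lower (0.296%), in livers of other animals with their own controls. All 5 genes called at 24 h passed there too, in the same direction. Fgf23 differed by 1.23, Tacr1 by 1.24, Csf2rb by 1.37, Mmp8 by 2.26 and Hamp by -3.86. At 7 days, 72 genes passed (0.496%), and of the 5 only Hamp did, at -5.48. Fgf23 stood at 0.09, Tacr1 at 0.08, Mmp8 at 0.14 and Csf2rb at 0.26 then.

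Whether the response differed between times was tested as a difference of differences. From 24 h to 72 h, 84 genes passed (0.579%). Among the early genes these were Csf2rb, whose difference was larger by 0.75 at 72 h (adjusted p = 0.0033), and Mmp8, larger by 1.40 (adjusted p = 0.000736). The increase was not shown for Fgf23 (0.43, adjusted p = 0.591), Tacr1 (0.55, 0.136) or Hamp (-1.92, 0.0922). From 24 h to 7 days, 24 genes passed (0.165%), and Hamp was among them at -3.54 (adjusted p = 0.000447). For the other 4 genes the change by 7 days did not pass, with Fgf23 at -0.70 (adjusted p = 0.0859) and Tacr1 at -0.61 (0.196). The changes of Csf2rb and Mmp8 to 72 h and of Hamp to 7 days passed in all 30 fits that left out a single array.

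Red cell genes differed between the times. At 72 h, 25 of the 35 erythroid genes had risen, with a list median of 0.95, and for 16 the difference was larger than at 24 h by the same test. Of all 14506 genes, 381 (2.63%) had risen at 72 h, and for 80 the difference was larger than at 24 h. Hemgn went from -0.04 to 2.40, Rhag from -0.02 to 2.05 and Alas2 from -0.16 to 2.13. Rhd, the Rh blood group protein, went from 0.38 to 2.48. Slc4a1, which did not pass at 24 h, went from 0.85 to 3.04 (adjusted p of the change 0.0106). That change did not pass without EPO array 4 of 72 h (adjusted p = 0.0635), nor did that of Rhd (adjusted p = 0.0517). For Alox15, which stood at 4.07 at 72 h and 4.5 at 7 days, the change passed by 7 days (adjusted p = 0.0409) and not by 72 h (0.0706). Single arrays decided that call, since Alox15 passed by 7 days in 10 of the 30 fits that left out an array, and the change of Alas2 to 72 h in 12 (adjusted p up to 0.165 and 0.159). Of 49 cell cycle genes, 0 passed at 24 h, with a median of -0.05, 23 had risen at 72 h, and for 9 the difference was larger then by the test of the change. Rrm2, a subunit of the enzyme that makes deoxynucleotides, differed by -0.19 at 24 h and 1.56 at 72 h.

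**Figure D5:**
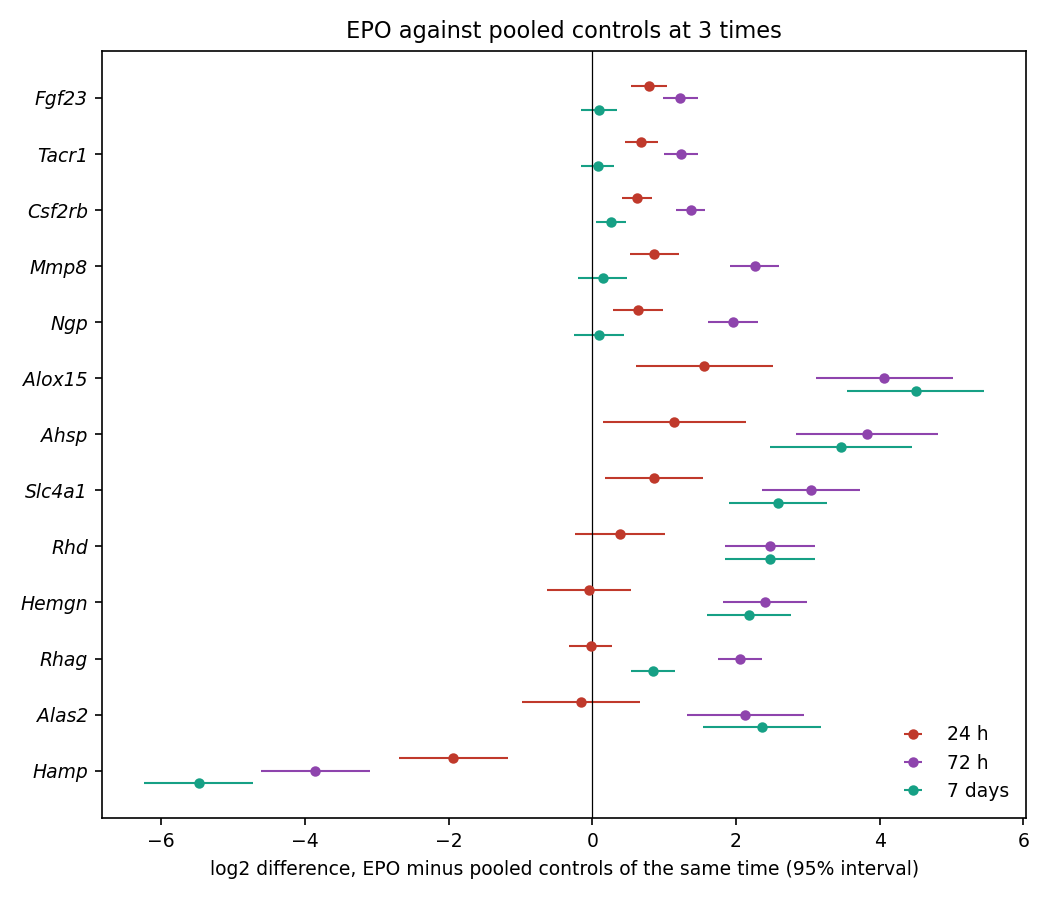
Log2 differences between EPO and the pooled controls of the same time, with 95% intervals from limma, are shown for 13 genes at 24 h, 72 h and 7 days. Hamp has its lowest value at 7 days, Fgf23, Tacr1, Csf2rb, Mmp8 and Ngp have their highest at 72 h, and Hemgn, Rhag and Alas2 lie near 0 at 24 h.

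Kupffer cell and macrophage markers lay slightly above the controls as a list without any gene passing. Of 30 measured Kupffer cell and macrophage markers, 27 lay above 0 (90%, beside 44.4% of all genes), with a median of 0.17. Ribosomal protein genes (79.4%) and oxidative phosphorylation genes (79.7%) also lay mostly above 0. Below an unadjusted p of 0.05 stood 4 higher markers (13.3%, beside 2.16% of all genes) and 0 lower. These were Tyrobp (0.36), Ccl2 (0.34), Vsig4 (0.29) and Cd68 (0.28), named after their values were seen. Sham means of these 4 genes, in that order 9.02, 7.05, 9.76 and 9.06, lay near the EPO means of 8.97, 7.04, 9.79 and 8.94. The mean over the list was 8.37 to 8.57 in the EPO livers and 8.14 to 8.56 in the controls, so the groups overlapped, and vehicle array 3 held the lowest value of Cd68, at 8.02. Without the 5 arrays of narrow spread in the series, vehicle array 3 among them, 25 lay above 0 and the median was 0.14. In that fit 2 markers stood higher below an unadjusted p of 0.05, beside 299 of all 14506 genes. Against vehicle alone 26 lay above 0 and 3 stood higher below that p, beside 536 of all 14506 genes. Against anakinra alone 26 lay above 0 and 0 stood higher below that p, beside 129 of all 14506 genes. Without the narrow arrays, 57.4% of ribosomal protein genes and 67.2% of oxidative phosphorylation genes lay above 0. Against vehicle alone these shares were 80.9% and 90.6%, and against anakinra alone 51.5% and 62.5%. Of 40 interferon response genes 30 lay above 0 against the pooled controls, with a median of 0.16 and 0 passing. Endothelial markers (26 measured, median 0.03) and cholangiocyte markers (26, median -0.07) had 0 genes that passed. The part of such cells in the differences above was not tested.

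Drug-handling genes, the subject of the series' title, gave no call at 24 h. None of 40 cytochromes P450 of families 1 to 3 passed (median 0.01, 2 higher and 2 lower below an unadjusted p of 0.05), nor did any of 45 other phase I enzymes (median -0.01), 39 conjugating enzymes (median -0.02) or 45 transporters (median -0.01). Cyp2c11, the main male-specific P450 of rat liver, read 13.09 to 13.24 under EPO and 13.02 to 13.25 in the controls, and its interval, -0.05 to 0.14, is narrow. Cyp3a2, another male-predominant P450, differed by 0.07 (-0.07 to 0.21). Cyp2b1, the target of phenobarbital-type inducers, differed by 0.65 with a wide interval of -0.12 to 1.41, and Nr1i3, the receptor CAR that regulates it, by -0.30 (-0.70 to 0.10). Hnf4g, a nuclear receptor, differed by 0.58 (SE 0.18, adjusted p = 0.83), and its anakinra livers exceeded vehicle by 0.61. Cyp7a1, the rate-limiting enzyme of bile acid synthesis, named after its values were seen, read 9.75 to 10.98 under EPO and 9.97 to 12.11 in the controls, a difference of -0.93 that did not pass (adjusted p = 0.83).

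Clock genes varied within the 24 h controls. None of 21 passed. Below an unadjusted p of 0.05 stood 3 higher (14.3%) and 4 lower (19%), beside 2.16% and 2.86% of all genes. Against vehicle alone these counts were 5 and 4, and against anakinra alone 0 and 0. Over all 14506 genes they were 536 and 1036 against vehicle and 129 and 116 against anakinra. Nr1d1, a repressor of the clock, read 7.84 to 9.31 under EPO, 9.38 to 10.17 under vehicle and 6.84 to 10.46 under anakinra, and differed by -0.90. Dbp, a clock output factor, and Per3, a period gene, differed by -0.71 and -0.53, and Bmal1 and Cry1 by 0.43 and 0.47. The EPO livers spread less than the controls in Dbp, 8.01 to 8.45 against 7.94 to 10.46. These genes were named after their values were seen, and the part of the time of collection was not tested.

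The interleukin-1 genes bear on the mixed control pool, since anakinra occupies their receptor. Of 26 measured none passed, 2 stood higher and 1 lower below an unadjusted p of 0.05, and the median was 0.04. Il1r1, the receptor itself, read 8.83 to 9.37 under EPO, 9.38 to 9.81 under vehicle, 8.95 to 9.84 under anakinra and 8.58 to 8.75 in sham livers. All EPO livers lay below all vehicle livers and overlapped the anakinra livers, and the pooled difference of -0.32 did not pass (adjusted p = 0.83). Il1rn, the natural antagonist, differed by 0.12 (95% interval -0.19 to 0.42).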

How the data were processed

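The authors processed the arrays with RMA in the oligo package, per the submitters' processing notes, and deposited log2 values per transcript cluster. Their versions are not given in those notes, and scanner values were not analysed here. Of 29214 clusters, 15310 had a single gene symbol, and each of 14506 genes is represented by its probe of highest mean. The 13904 clusters with no or several symbols, tested apart, gave 0 calls (smallest adjusted p 0.858). limma 3.58.1 in R 4.3.3 fitted 1 mean per group over all 50 arrays (lmFit, eBayes, 40 residual degrees of freedom), with two-sided p-values adjusted by Benjamini-Hochberg over all genes. The pooled control is the average of the vehicle and anakinra means. The procedure was tested on simulated data with independent normal noise and, for each gene, the same spread in every group. That setting does not cover genes such as Hamp, whose spread differed between groups. Array number limits the precision. The p-values rest on the spread between animals within all 10 groups of the series, sham and later livers included. They do not measure the spread of the livers compared alone.

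The members, the 40 gene lists (86.3% of 1565 entries measured) and a panel of 55 genes were chosen with earlier results of these data known. Named were the 40 genes with the smallest p, the panel, list examples and genes that differed between times. Promoter windows come from RefSeq (GRCr8). Alternatives covered weights, trend, groups fitted, narrow arrays, centring, probe choice, dim genes, a replicate block, each control group alone and leaving out each array.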

Additional observations from a re-analysis of the deposited data

Results flagged for a closer look

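In groups of 5 arrays an array was singled out where its gap to the nearest other array exceeded Dixon's 95% critical value for the range. This happened in 8 of 180 groups screened, and chance alone singles out about 1 in 20. They were Fgf23 in anakinra array 4 (4.82, others 5.30 to 5.36), Csf2rb in vehicle array 1 (7.72, others 7.24 to 7.37) and anakinra array 2 (7.19, others 7.35 to 7.40), Ahsp in vehicle array 3 (3.95, others 5.78 to 6.44), Cish in EPO array 1 (8.15, others 9.48 to 9.81), Stat5a in EPO array 5 (7.24, others 7.70 to 7.80), Cyp2c11 in vehicle array 5 (13.25, others 13.02 to 13.08) and Lcn2 in EPO array 5 (11.78, others 7.92 to 8.96).

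The difference between EPO and pooled controls itself differed between 72 h and 24 h in these named genes: Csf2rb by 0.75, Mmp8 by 1.40, Ngp by 1.32, Slc4a1 by 2.19, Rhag by 2.08, Hemgn by 2.44, Alas2 by 2.29, Ank1 by 1.17, Rrm2 by 1.75, Rhd by 2.09 and Car2 by 2.13. Adjusted p-values of these limma contrasts lay between 1.13e-08 for Rhag and 0.0438 for Alas2. Between 7 days and 24 h it differed in Hamp by -3.54, Alox15 by 2.94, Hemgn by 2.22, Alas2 by 2.52, Rhd by 2.09, Ank1 by 0.86, Car2 by 1.88, Cd52 by 2.13 and Gfi1b by 0.68, with adjusted p-values from 0.000447 for Hamp to 0.0409 for Alox15 and Alas2. Many of these 7-day calls rest on single arrays. In 30 fits that each left out 1 array, Hamp and Cd52 passed in 30, Hemgn and Car2 in 29, Gfi1b in 28, Rhd in 21, Ank1 in 14 and Alas2 and Alox15 in 10. Without EPO array 1 of 7 days only Hamp and Cd52 of the 9 passed, and the adjusted p was 0.0624 for Hemgn, 0.066 for Gfi1b, 0.0796 for Car2, 0.163 for Rhd, 0.165 for Ank1 and Alox15 and 0.174 for Alas2. Of the changes to 72 h, those of Alas2 (12 of 30 fits), Slc4a1 (29) and Rhd (29) did not pass in every such fit. Ank1, Car2, Cd52 and Gfi1b encode ankyrin of the red cell membrane, carbonic anhydrase 2, a leukocyte surface glycoprotein and an erythroid transcription factor.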

How the results depend on the processing

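With array weights 19 genes passed at 24 h (11 higher, 8 lower), with the 15 arrays alone or with 1 shared control mean 8, with anakinra alone 3, and leaving out each array gave 3 to 6, the 3 without EPO array 2 or 3. The count stayed within 1.5 times 5 under the other settings, the replicate block included (5 calls). Same-numbered arrays of the 24 h groups deviated together more often than arrays of different number. Their correlations were -0.21 to 0.37 with a mean of 0.12, and 9 of 15 pairs exceeded 0.1. For different numbers they were -0.44 to 0.37 with a mean of -0.03, and 14 of 60 exceeded 0.1. The main fit did not take the numbers as pairs, and what they stand for was not tested. Fgf23 and Csf2rb passed in every setting in which they were tested, Fgf23 not being tested without the dimmest 25% of genes, and Tacr1 in all but vehicle alone (0.63, adjusted p = 0.065). Without the narrow arrays Mmp8 was at an adjusted p of 0.0808 and Egr1 passed (0.0434), and Hamp did not pass with trend and robust options (0.0548). For change from 24 h to 72 h the weights gave 219 calls, and single arrays left out gave 40 to 150 (without EPO arrays 4 and 1 of 72 h, and 52 without array 3). From 24 h to 7 days the counts were 48 with weights, 47 with only the groups compared, 14 without narrow arrays and 2 to 32 with single arrays left out, moving by over 1.5 times without any of 16 of the 30 arrays and lowest without EPO array 1 of 7 days. At 72 h only the groups compared gave 202, and single arrays left out 268 to 823 (without EPO arrays 2 and 1 of 72 h). At 7 days the latter range was 52 to 82, and between anakinra and vehicle it was 0 to 0. The genes near 0 that changed sign were Hemgn (0.014 with quantile normalization, 0.026 with vehicle alone, -0.092 to 0.014 with arrays left out), Rhag (0.005 with weights, 0.039 with quantile normalization, 0.003 with anakinra alone) and Tfrc (-0.083 with anakinra alone). The cause was not tested. Arrays give no counts, and the table holds no detection call, so a limit by signal over background is not known.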
